A study of Mus musculus with 9 samples.

Results

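Zinc finger genes of the repressor families were followed in a wild-type cell line of mouse brain microvascular endothelium, the inner lining of brain capillaries. The genes are those in the deposited expression table whose symbol starts with Zfp, Zkscan, Zscan, Zbtb or Zik, plus the unnamed copies Gm14308, Gm14434, Gm14296 and 2210418O10Rik. The RNA-binding genes of the Zfp36 family were left out. The rule took 28 of the 675 genes in the table, of which 22 carry a Zfp symbol, 1 is Zbtb3, 1 is Zkscan7 and 4 are the copies; 0 start with Zscan or Zik. Of the 28, 26 had a mean of at least 1 FPKM (fragments scaled to transcript length and to the reads mapped in the library) over the 9 libraries and were tested among 580 such genes.

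Cells were kept without oxygen, glucose and serum while perfused with 3 µM obacunone (OGD+Oba), without oxygen, glucose and serum (OGD, which models ischemia in culture), or in normoxia, for 1, 3 or 6 h. Obacunone is a limonoid found in citrus fruit. Each of the 9 groups is 1 RNA-seq library of the same wild-type line, and differences between single libraries have no replicate check. Both deprived arms lack serum as well as oxygen and glucose, so the parts of oxygen, glucose and serum in any difference cannot be told apart.

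Most mammalian zinc finger genes with a Zfp symbol code for strings of Cys2-His2 fingers, each of which reads a few bases of DNA. Many join the fingers to a KRAB domain, which recruits the corepressor TRIM28 and, through it, enzymes that lay down silent chromatin, and in mouse embryonic stem cells such proteins silence retrotransposons. BTB and SCAN domains, named in the symbols Zbtb, Zkscan and Zscan, pair proteins with one another. KRAB zinc finger genes lie in clusters of recent duplicates, so some differ by few bases and short reads can fit several of them.

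The label of repressor follows from the gene symbols, and its basis was checked here by sequence patterns alone. Coding sequences from GENCODE M21 (GRCm38) were translated and searched for the finger pattern (2 cysteines and 2 histidines at their usual spacing) and for the conserved core of the KRAB A box. A KRAB match was found in 18 of the 28 genes, with 1 to 22 finger matches and a median of 13. In the 10 others there were 0 to 18 finger matches with a median of 3. Zfp395 had 0, Zfp326 had 1, and Zfp292 had 3, while Zfp184 had 18 and Zfp607b 17. A missed match may reflect the pattern or the gene model chosen, and genes without one are called here by that fact alone. Zkscan7, whose symbol names a KRAB as well as a SCAN domain, is among those without a match.

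By the log2 ratios of the authors' deposited table, all 675 genes were at least 2-fold apart at 6 h, with 350 higher in OGD than in normoxia and 325 lower. Of the zinc finger genes 9 were higher and 19 lower there; among those with a KRAB match 3 were higher and 15 lower, and among those without one 6 and 4. The 6 h comparison describes genes chosen on it. The 6 h ratio does not use the libraries of 1 h and 3 h. Whether the authors also filtered genes on those libraries is not given in the sources used here. The selected table cannot check the cell type: of 12 endothelial marker genes only Flt1 is listed, at 0.05 to 0.68 FPKM over the 9 libraries. Of the markers of other cell types the neuronal tubulin Tubb3 and the epithelial Cldn4 are listed. In OGD+Oba and OGD at 3 h Cldn4 stood at 260 and 271 FPKM, against 97.6 FPKM in normoxia. Tubb3 stood at 3.47 and 3.43 FPKM in OGD+Oba and OGD at 3 h, against 10.7 FPKM in normoxia. Their part in the results below was not tested, and in bulk RNA fewer cells of a kind and less RNA per cell cannot be told apart. Library depth is unknown.

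The zinc finger genes were scarce transcripts: the mean of the tested ones over the libraries ran between 1.00 FPKM (Zkscan7) and 13.2 FPKM (Zfp326), with a median of 2.73 FPKM against 8.48 FPKM for all tested genes. Values below are differences of log2(FPKM + 1), on which changes of low genes look smaller than they are. Deprived against normoxia at a given time sets the mean of the OGD+Oba and OGD libraries against the lone normoxia library, in a limma fit over all 580 genes with Benjamini-Hochberg adjustment. The fit holds an obacunone effect common to all times. Its spread comes from changes between times in the difference of the OGD+Oba and OGD pairs, which are not replicates. An obacunone effect that changes with time thus counts as error. The lone normoxia library is taken to vary as much. The p-values thus measure the spread of single libraries, which may be technical.

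At 1 h 0 of the 26 tested zinc finger genes passed an adjusted p of 0.05, where 4.14% of all tested genes did, and 1 (Zfp967) had an unadjusted p under 0.05, where 9.66% of all tested genes did. At 3 h, 3 rose (Zfp292, Zfp395 and 2210418O10Rik) and 8 fell (Zfp54, Zfp760, Zfp229, Zfp808, Zfp825, Zfp345, Zfp983 and Zfp326). The shares of all tested genes that rose and fell at 3 h were 32.8% and 28.6%, and 61.4% passed in either direction, against 42.3% of the zinc finger genes. At 6 h 8 were called higher and 16 lower, where 53.1% and 44.3% of all tested genes were; the table was chosen on this time. Their median difference was -0.01 at 1 h, -0.40 at 3 h and -0.82 at 6 h, against -0.05, 0.05 and 0.76 over all tested genes. The heatmap shows each gene in each library.

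**Figure D1:**
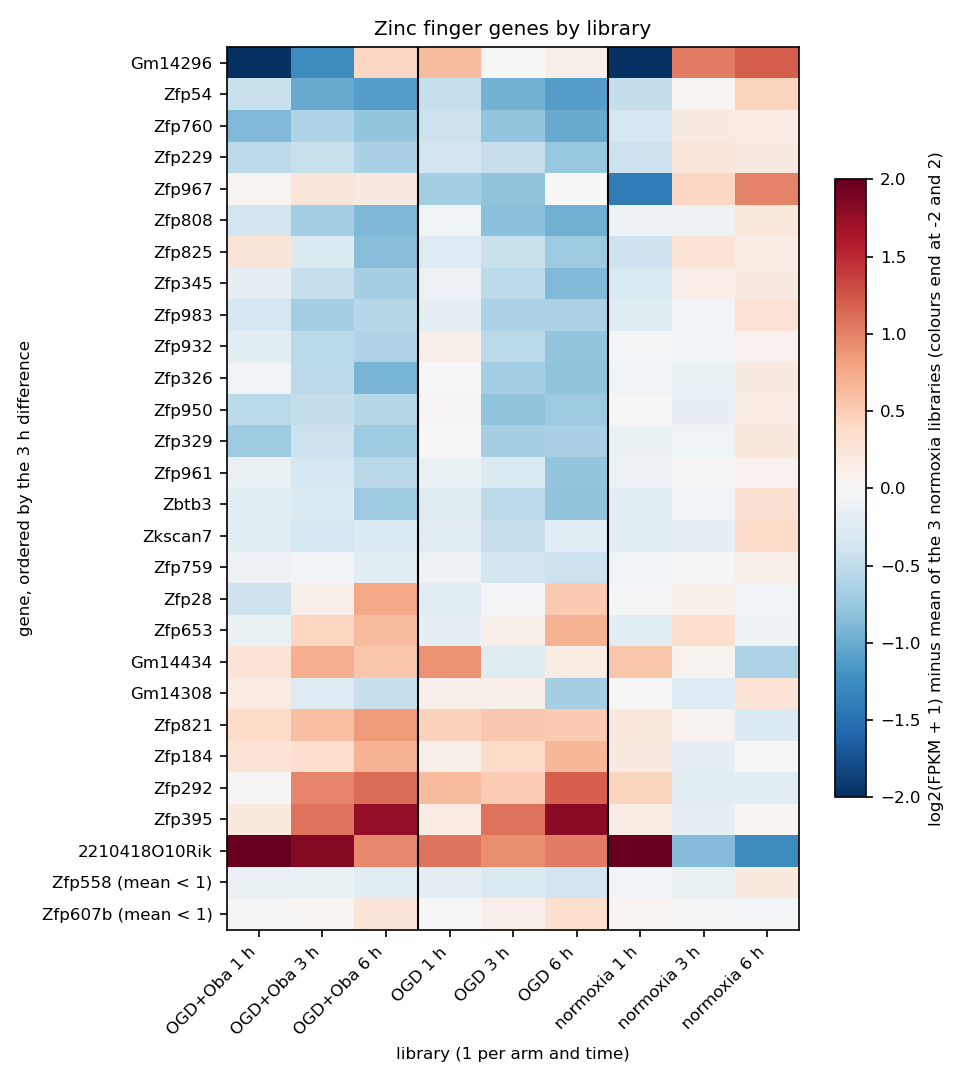
Heatmap of the 28 zinc finger genes (rows, ordered by the 3 h difference, the 2 genes with a mean under 1 FPKM last) in 9 libraries (columns, 1 per arm and time). Colour is log2(FPKM + 1) minus the mean of the 3 normoxia libraries, ending at -2 and 2; most upper rows turn blue in the deprived libraries at 3 h and 6 h, Zfp292 and Zfp395 turn red, and Gm14296 and 2210418O10Rik take opposite colours in normoxia and in OGD+Oba at 1 h and 3 h.

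The 4 listed members that lie together on chromosome 17 fell at 3 h. Genes of that region that are not listed were not analysed here. All 4 are lower in OGD at 6 h in the authors' deposited table, and 62.1% of all tested genes chosen on that side fell at 3 h. Zfp54, Zfp983, Zfp760 and Zfp229, all with a KRAB match, lie within chr17:21423227-21748969 (GRCm38.p6) on the plus strand. Zfp54, the most abundant of them, stood at 7.29, 4.66 and 4.29 FPKM in OGD+Oba at 1, 3 and 6 h, at 7.22, 4.91 and 4.25 FPKM in OGD, and at 7.10, 10.65 and 14.39 FPKM in normoxia. At 1 h its 3 libraries lay close together, and at 3 h and 6 h both deprived libraries were below every normoxia library. It fell by 1.01 ± 0.17 at 3 h (log2 ± SE, adjusted p = 0.00213), against a difference of 0.03 ± 0.17 at 1 h (adjusted p = 0.992).

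Zfp760 stood at 0.99, 1.38 and 1.12 FPKM in OGD+Oba, at 1.72, 1.11 and 0.82 FPKM in OGD, and at 1.88, 3.14 and 3.10 FPKM in normoxia. Zfp229 stood at 1.14, 1.26 and 0.97 FPKM in OGD+Oba, at 1.35, 1.23 and 0.82 FPKM in OGD, and at 1.29, 2.64 and 2.49 FPKM in normoxia. Zfp983, named because it passed the test, stood at 1.22, 0.75 and 0.88 FPKM in OGD+Oba, at 1.45, 0.81 and 0.81 FPKM in OGD, and at 1.36, 1.70 and 2.42 FPKM in normoxia. In each of these genes both deprived libraries at 3 h were lower than all 3 normoxia libraries. They fell by 0.89 ± 0.27, 0.70 ± 0.22 and 0.60 ± 0.21 in that order (limma adjusted p = 0.0226, 0.0249 and 0.0415). With Zfp54 included, the median of the 4 members was -0.79. Without the 6 h libraries Zfp229 and Zfp983 no longer passed the test, nor did they with a pseudocount of 0.1.

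The bases just before the annotated start of Zfp54 (RefSeq, GRCm38.p6, chr17:21422977-21423226, plus strand, 250 bases) are shown because it fell most among the members with little shared sequence. They hold 0 matches to ACGTG, a form of the core bound by hypoxia-inducible factors, on either strand, and 8 CpG dinucleotides. Other forms of the core were not counted.
Zfp54: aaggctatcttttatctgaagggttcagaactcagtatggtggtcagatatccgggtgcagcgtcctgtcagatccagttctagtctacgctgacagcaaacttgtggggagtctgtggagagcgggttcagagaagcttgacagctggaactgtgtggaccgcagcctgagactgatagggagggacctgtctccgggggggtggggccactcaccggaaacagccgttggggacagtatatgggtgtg

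Other genes with a KRAB match fell or missed the test. Zfp808 stood at 2.27, 1.63 and 1.27 FPKM in OGD+Oba at 1, 3 and 6 h, at 2.99, 1.36 and 1.17 FPKM in OGD, and at 2.93, 2.96 and 3.88 FPKM in normoxia. Zfp345 stood at 2.75, 2.10 and 1.71 FPKM in OGD+Oba, at 2.94, 1.99 and 1.33 FPKM in OGD, and at 2.47, 3.68 and 3.86 FPKM in normoxia. Both deprived libraries at 3 h were below all normoxia libraries in these genes, which fell by 0.67 ± 0.23 and 0.62 ± 0.21 (adjusted p = 0.0363 and 0.0359). Zfp825 stood at 10.3, 6.84 and 4.26 FPKM in OGD+Oba, at 6.93, 6.00 and 4.71 FPKM in OGD, and at 6.10, 10.41 and 9.55 FPKM in normoxia. It fell by 0.62 ± 0.22 (adjusted p = 0.0415), but its deprived libraries at 3 h overlap the 1 h normoxia library, and with no floor on expression or with median-ratio scaling it did not pass. Without the 6 h libraries the falls of Zfp808 and Zfp345 did not pass either. Of the 31-base words in its transcripts, Zfp345 shares 50.8% with other genes, Zfp825 48.2% and Zfp808 43.2%.

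Zfp932, which in mouse embryonic stem cells represses endogenous retroviruses, stood at 11.3, 8.78 and 8.40 FPKM in OGD+Oba, at 14.2, 8.83 and 7.26 FPKM in OGD, and at 13.1, 12.7 and 14.1 FPKM in normoxia. Both its deprived libraries at 3 h were below all normoxia libraries, and its difference of -0.49 ± 0.19 missed the threshold (adjusted p = 0.0556). Zfp950, Zfp961, Zfp759 and Zfp28 had 3 h differences of -0.47, -0.34, -0.18 and -0.06 that did not pass.

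The normoxia libraries themselves moved with time. For Zfp229, Zfp825, Zfp54, Zfp760 and Zfp345 the 3 h normoxia library was 0.43 to 0.68 above the 1 h one, and the mean of the deprived libraries at 3 h differed from normoxia at 1 h by -0.03, 0.06, -0.49, -0.36 and -0.19. For Zfp326 and Zfp808 normoxia at 3 h differed from 1 h by -0.07 and 0.01, and the deprived libraries at 3 h lay 0.55 and 0.66 below normoxia at 1 h. At 6 h 19 of the 26 zinc finger genes were higher in normoxia than at 1 h, where 48.6% of all tested genes were, with a median of 0.26 against -0.06. Normoxia at 6 h is a library on which the table was chosen, and genes chosen as lower in OGD there tend to be high in it. Of the tested genes chosen as lower, 18 of 18 zinc finger genes were above 1 h, with a median of 0.50, against 92% of all such genes, with a median of 0.44. Of those chosen as higher, 1 of 8 was, against 12.3%.

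Genes without a KRAB match went both ways. Zfp395, known in human cells as a transcription factor that responds to hypoxia, stood at 4.34, 8.86 and 14.8 FPKM in OGD+Oba at 1, 3 and 6 h, at 4.19, 8.83 and 15.2 FPKM in OGD, and at 4.17, 3.09 and 3.76 FPKM in normoxia. From 3 h both deprived libraries were more than 2-fold above every normoxia library, and the OGD+Oba and OGD values differed by less than 0.05 on the log2 scale at each time. It rose by 1.27 ± 0.17 at 3 h (adjusted p = 0.000691), against a difference of 0.03 ± 0.17 at 1 h. Zfp395 lies at chr14:65358676-65398930 (GRCm38.p6).

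Zfp292, a large zinc finger gene (2698 residues in its model) whose rat counterpart binds the growth hormone promoter, stood at 4.73, 10.1 and 11.3 FPKM in OGD+Oba, at 7.77, 7.04 and 11.9 FPKM in OGD, and at 6.67, 3.82 and 3.90 FPKM in normoxia. Both deprived libraries at 3 h were above all normoxia libraries, and at 1 h they lay on either side of normoxia. It rose by 0.97 ± 0.30 at 3 h (limma adjusted p = 0.0238). Its normoxia library at 3 h differed from that at 1 h by -0.67. The mean of its deprived libraries at 3 h differed from normoxia at 1 h by 0.30. The bases before its annotated start (RefSeq, GRCm38.p6, chr4:34882984-34883198, minus strand, 215 bases) are shown because Zfp292 is the only tested member with a promoter window that held the letters ACGTG. Capitals mark matches to ACGTG on either strand, 3 in all, of which CACGTG counts on both strands.
Zfp292: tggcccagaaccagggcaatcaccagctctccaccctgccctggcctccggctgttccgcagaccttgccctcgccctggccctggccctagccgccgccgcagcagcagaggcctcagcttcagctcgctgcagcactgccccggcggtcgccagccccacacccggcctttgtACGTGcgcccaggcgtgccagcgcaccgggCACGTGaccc

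Zfp184 stood at 1.74, 1.86 and 2.67 FPKM in OGD+Oba, at 1.48, 1.96 and 2.60 FPKM in OGD, and at 1.59, 0.98 and 1.30 FPKM in normoxia. Zfp821 stood at 5.70, 6.85 and 8.33 FPKM in OGD+Oba, at 6.13, 6.54 and 6.42 FPKM in OGD, and at 5.02, 4.42 and 3.26 FPKM in normoxia. In both genes the deprived libraries at 3 h and 6 h were above all normoxia libraries. Their 3 h differences of 0.56 ± 0.21 and 0.51 ± 0.20 missed the threshold narrowly (adjusted p = 0.0507 and 0.0610), and both passed in limma without trend. Zfp653 had a 3 h difference of -0.06 ± 0.20 (adjusted p = 0.812). Its OGD library at 3 h, at 4.93 FPKM, lay inside the range of the normoxia libraries, 3.66 to 5.87 FPKM, and its OGD+Oba library, at 6.35 FPKM, above it.

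Zfp326, the most abundant member, codes for a zinc finger protein that in human cells belongs to the DBIRD complex, which links transcription by RNA polymerase II to splicing. It was named because it passed the test. It stood at 15.5, 11.0 and 8.09 FPKM in OGD+Oba, at 16.2, 9.84 and 8.93 FPKM in OGD, and at 15.7, 14.8 and 18.7 FPKM in normoxia. It fell by 0.47 ± 0.16 at 3 h (adjusted p = 0.0340), with both deprived libraries below all normoxia libraries. Without the 6 h libraries it did not pass.

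Zbtb3, the only BTB member, stood at 1.5, 1.40 and 0.75 FPKM in OGD+Oba, at 1.44, 1.00 and 0.66 FPKM in OGD, and at 1.48, 1.74 and 2.55 FPKM in normoxia. Zkscan7, the only member named for a SCAN domain, stood at 0.94, 0.78 and 0.87 FPKM in OGD+Oba, at 0.94, 0.64 and 0.93 FPKM in OGD, and at 0.95, 1.01 and 1.95 FPKM in normoxia. Both were lower than every normoxia library in the deprived libraries at 3 h. Their differences of -0.32 ± 0.21 and -0.23 ± 0.21 did not pass (adjusted p = 0.224 and 0.360). Zfp329 had a 3 h difference of -0.47 ± 0.30 (adjusted p = 0.211). Zkscan7 is the member just above the floor of 1 FPKM; Zfp558, with a mean of 0.697 FPKM, is just below it, and Zfp607b had 0.181 FPKM.

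A test of the 3 h difference against the 1 h one passed for 5 of the 26 genes, where 37.1% of all tested genes passed: Zfp54, Zfp825 and Zfp967 lower at 3 h, Zfp395 and 2210418O10Rik higher.

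Over all 26 tested genes, both deprived libraries lay outside the range of all 3 normoxia libraries for 2 higher and 5 lower at 1 h, where this held for 10.7% and 16.7% of all tested genes. At 3 h the counts were 4 higher and 13 lower, against 37.2% and 38.8%. At 6 h they were 6 and 16, against 48.4% and 42.4%. Of the 8 genes that fell at 3 h, 7 lay below all normoxia libraries, the exception being Zfp825. Of the 3 that rose, 2 lay above them, the exception being 2210418O10Rik. A call at 3 h already sets the deprived libraries against normoxia at 3 h, and the table was chosen on normoxia at 6 h. For the called genes only the normoxia library of 1 h thus adds a further comparison.

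**Figure D2:**
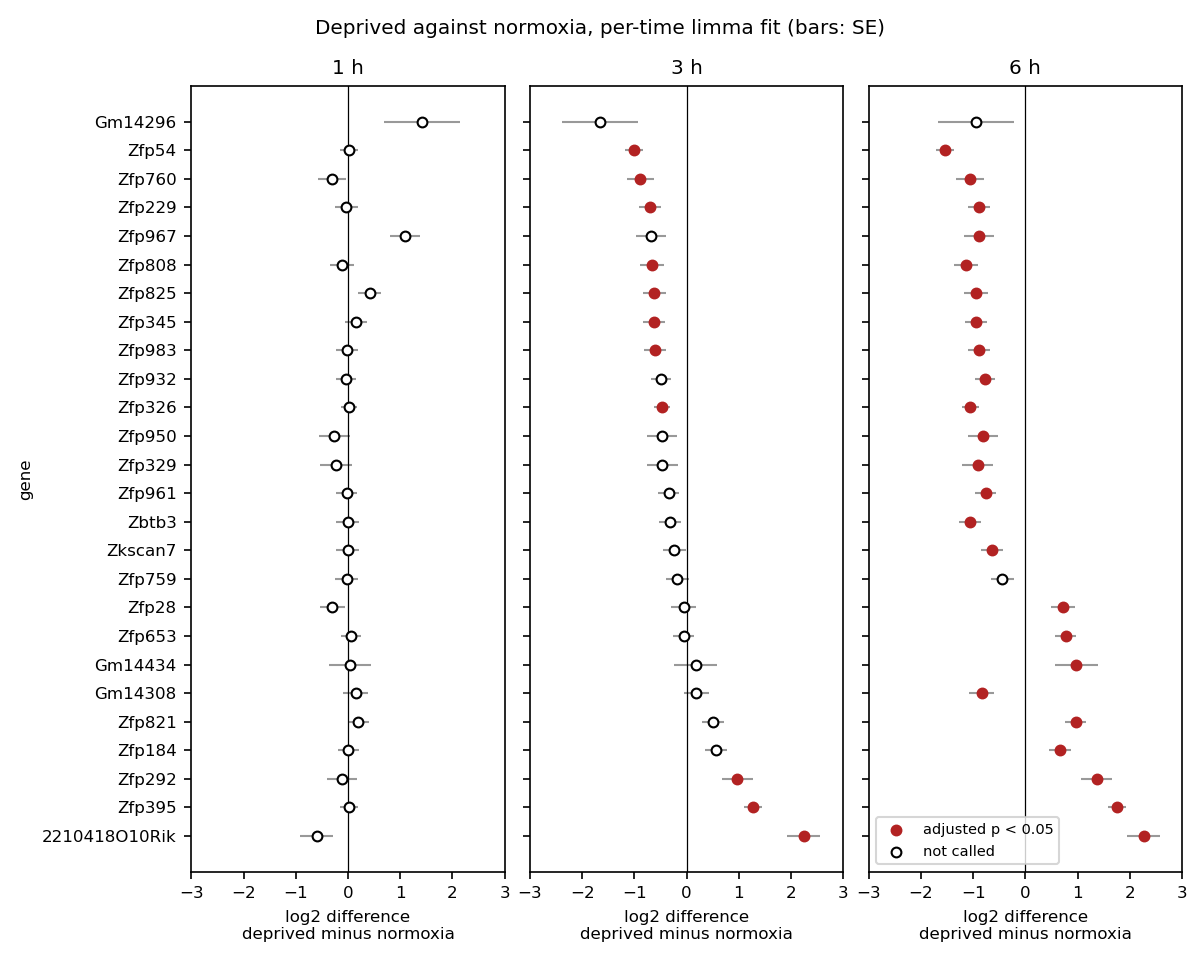
Difference between the deprived libraries (OGD+Oba and OGD) and normoxia in log2(FPKM + 1) for the 26 tested zinc finger genes at 1, 3 and 6 h, with bars of 1 SE from the limma fit; filled points passed an adjusted p of 0.05 over all tested genes. No gene passed at 1 h, 3 rose and 8 fell at 3 h, and 8 were called higher and 16 lower at 6 h, the time on which the table was chosen.

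The genes with a KRAB match and those without one can be set side by side with the selection of the table in view. Leaving out genes with at least 50% of their words shared, 11 tested genes had a KRAB match: all 11 were below 0 at 3 h, 6 fell, and the median was -0.60. Of the 9 tested genes without a match, 4 were above 0 and 5 below, 2 rose and 1 fell, and the median was -0.06. A match missed by the pattern would place a gene in the wrong class. Zfp184, with 18 finger matches and no KRAB match, was among those above 0, at 0.56. Of all tested genes 48.8% were below 0. Among tested genes with a negative 6 h ratio in the authors' deposited table, however, 97.0% were below 0 at 3 h, 62.1% fell, and the median was -0.62. The 10 such genes with a KRAB match and little sharing had a median of -0.61 and 6 of them fell, 60%. Both values lie beside those of all tested genes chosen as lower at 6 h. The eleventh, Zfp28, is higher at 6 h in that table and had a 3 h difference of -0.06. The lower side of the selection held 15 of 18 genes with a KRAB match, 4 of 10 without one, and 325 of 675 in the whole table; the difference was not tested.

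**Figure D3:**
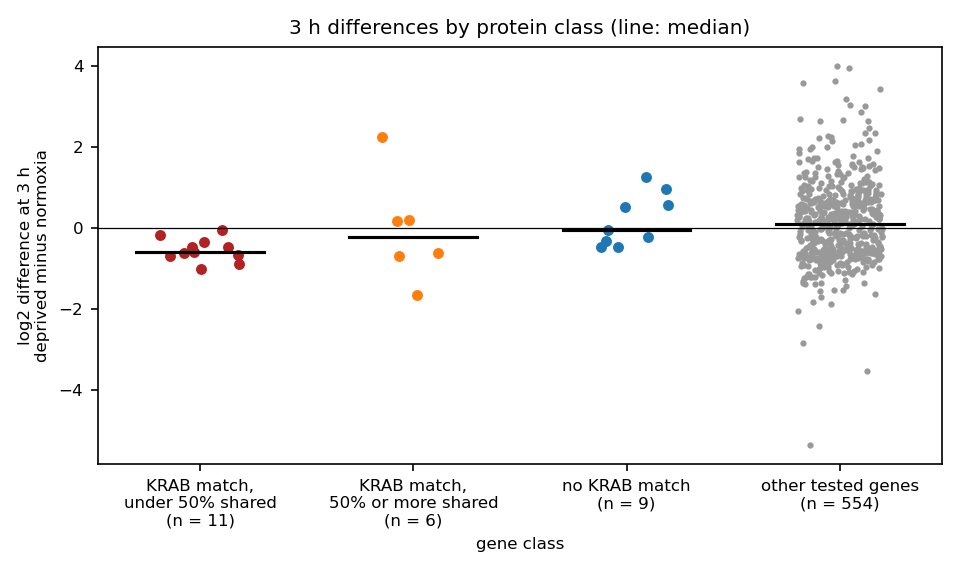
Difference between deprived and normoxia libraries at 3 h in log2(FPKM + 1) for tested genes by class: 11 with a KRAB match and under 50% of words shared, 6 with a KRAB match and 50% or more shared, 9 without a match, and all other tested genes. Each point is a gene and the line is the median; the first class lies wholly below 0 and the second spreads on both sides, widest at 2210418O10Rik and Gm14296.

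At 3 h the largest differences among the tested zinc finger genes, in both directions, belonged to near-identical copies on chromosome 2. Within chr2:176226565-176927813 (GRCm38.p6) lie 5 members, namely 2210418O10Rik, Gm14434, Zfp967, Gm14308 and Gm14296. In the GENCODE models the coding sequences of 2210418O10Rik and Gm14296 are equal at 402 of 402 bases, and those of Gm14308 and Gm14434 at 1494 of 1494 bases. All 31-base words of 2210418O10Rik also occur in Gm14296, and 98.4% of the words of Gm14434 occur in Gm14308. In the other direction, 39.7% of the words of Gm14296 occur in 2210418O10Rik and 80.9% of those of Gm14308 in Gm14434. Gm14434 also shares 98.5% of its words with Gm2026, which was not analysed here and is in no sum below. The 300-base promoter windows of Gm14308 and Gm14434 are equal at 300 of 300 bases. The same 120 coding bases of each gene, which code for part of the KRAB A box, are shown to let the copies be compared; capitals mark the 4 positions at which the pairs differ. Coordinates are on GRCm38, chr2:176235319-176235438 (plus strand) for 2210418O10Rik, chr2:176918940-176919059 (minus) for Gm14296, chr2:176625578-176625697 (minus) for Gm14308 and chr2:176476014-176476133 (minus) for Gm14434.
2210418O10Rik: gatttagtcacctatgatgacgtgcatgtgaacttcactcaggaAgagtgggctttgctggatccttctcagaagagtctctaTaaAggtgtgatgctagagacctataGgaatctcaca
Gm14296: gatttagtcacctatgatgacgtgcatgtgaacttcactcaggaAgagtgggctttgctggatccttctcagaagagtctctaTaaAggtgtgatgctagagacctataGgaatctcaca
Gm14308: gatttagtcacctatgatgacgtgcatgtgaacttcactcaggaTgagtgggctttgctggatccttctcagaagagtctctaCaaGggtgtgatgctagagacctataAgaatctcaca
Gm14434: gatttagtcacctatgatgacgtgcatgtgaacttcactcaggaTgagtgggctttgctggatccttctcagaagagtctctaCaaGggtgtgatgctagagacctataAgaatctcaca

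In the normoxia libraries and in OGD+Oba at 1 h and 3 h 1 copy held nearly all of the FPKM of the first pair, and in OGD the copies were closer to each other. 2210418O10Rik stood at 8.87, 7.84 and 3.84 FPKM in OGD+Oba at 1, 3 and 6 h, at 4.23, 3.76 and 4.08 FPKM in OGD, and at 9.90, 0.37 and 0.03 FPKM in normoxia. Gm14296 stood at 0, 0.92 and 5.18 FPKM in OGD+Oba, at 6.20, 3.68 and 4.07 FPKM in OGD, and at 0, 8.44 and 9.74 FPKM in normoxia. Taken singly, 2210418O10Rik rose by 2.24 ± 0.32 at 3 h (adjusted p = 0.000787), and Gm14296 had a difference of -1.65 ± 0.73 (adjusted p = 0.0806), which passed when the libraries of 1 h or of 6 h were left out.

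The sum of the pair was nearly level across the libraries. It stood at 8.87, 8.76 and 9.02 FPKM in OGD+Oba, at 10.4, 7.44 and 8.15 FPKM in OGD, and at 9.90, 8.81 and 9.77 FPKM in normoxia. Fitted as 1 gene, the sum had deprived-minus-normoxia differences of -0.04, -0.11 and -0.17 at 1, 3 and 6 h, each ± 0.19, with limma adjusted p of 0.992, 0.609 and 0.396. The rise of 2210418O10Rik taken singly at 3 h was not seen in the sum.

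Gm14434 stood at 2.72, 4.08 and 3.51 FPKM in OGD+Oba, at 4.69, 1.59 and 2.41 FPKM in OGD, and at 3.48, 2.21 and 1.00 FPKM in normoxia. Gm14308 stood at 3.30, 2.20 and 1.76 FPKM in OGD+Oba, at 3.10, 3.11 and 1.42 FPKM in OGD, and at 2.78, 2.19 and 3.62 FPKM in normoxia. At 6 h the authors' deposited table gives these copies opposite directions, with log2 ratios of OGD to normoxia of 1.44 and -1.25. Their sum had differences of 0.11, 0.25 and -0.03, each ± 0.25 (limma adjusted p = 0.992, 0.393 and 0.907). Zfp967, all of whose words occur in Zfp968, stood at 1.83, 2.22 and 2.06 FPKM in OGD+Oba, at 0.69, 0.56 and 1.74 FPKM in OGD, and at 0.03, 2.61 and 4.38 FPKM in normoxia. Its 3 h difference of -0.69 ± 0.29 did not pass with all libraries (adjusted p = 0.0707) and passed when those of 1 h were left out, and Zfp968 was not analysed here.

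**Figure D4:**
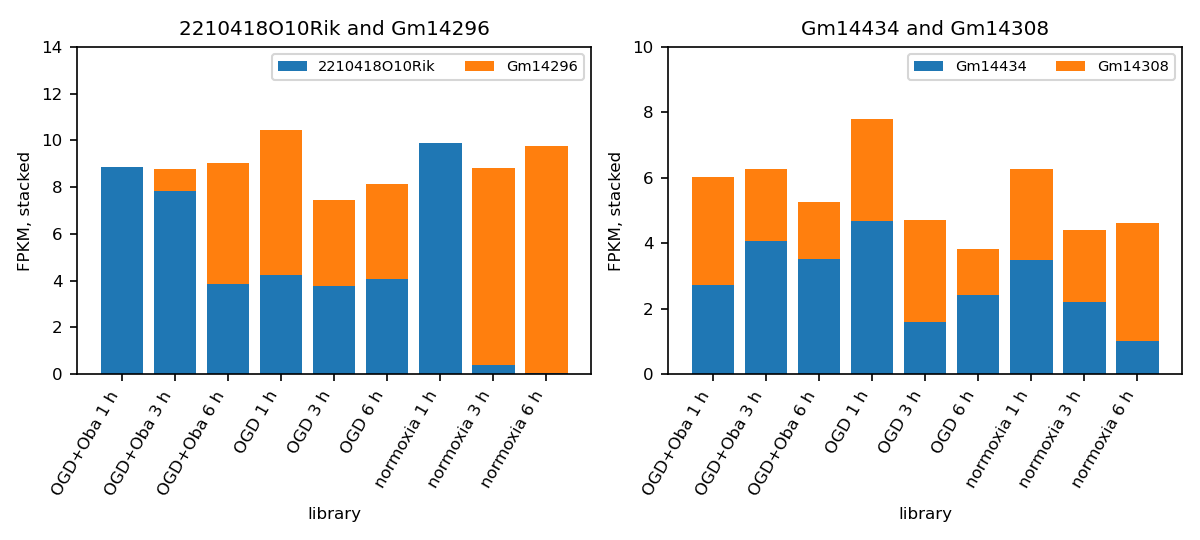
Stacked FPKM of the near-identical pairs 2210418O10Rik with Gm14296 (left) and Gm14434 with Gm14308 (right) in the 9 libraries, OGD+Oba first and normoxia last; bar height is the sum of the pair. The left sum stays between 7.44 and 10.4 FPKM while the split between the copies swings from library to library; the right sum runs between 3.83 and 7.79 FPKM.

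Taken over the 3 times in a fit with time and arm as terms, 0 of the 26 zinc finger genes passed for OGD against normoxia in limma, where 4.14% of all tested genes passed, and 5 had an unadjusted p under 0.05, where 25.5% of all tested genes did. These were Zfp395 with 1.01 ± 0.36 (adjusted p = 0.107), 2210418O10Rik with 1.01 ± 0.44 (0.165), Zfp292 with 0.78 ± 0.37 (0.190), Zfp54 with -0.84 ± 0.36 (0.159) and Zfp760 with -0.74 ± 0.30 (0.146). A change of the effect with time counts as error in this fit. Without the 1 h libraries 16 passed, 3 higher and 13 lower, which is 61.5% of the zinc finger genes against 75.3% of all tested genes; that fit rests on the 3 h and 6 h libraries, and the table was chosen on 6 h.

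Counted without a test, the OGD and normoxia libraries at 1 h were at least 2-fold apart in 2 zinc finger genes, where 3.79% of all tested genes were. They were Gm14296 (higher) and 2210418O10Rik (lower). At 3 h 4 were, against 23.3%: 2210418O10Rik and Zfp395 higher, Gm14296 and Zfp967 lower. At 6 h 9 were, 34.6% against 68.3%, but this gap depends on the scale: 19 were with median-ratio scaling (73.1% against 68.3%) and 20 with a pseudocount of 0.1 (76.9% against 91.7%). Between normoxia libraries, 3 differed this much between 3 h and 1 h (8.1% of all tested genes) and 4 between 6 h and 1 h (14.7%). With shared genes (at least 50% of words) left out, these normoxia counts and the 1 h OGD count were 0, and the 3 h OGD count was 1, Zfp395.

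Obacunone under deprivation left the zinc finger genes without a detected difference. Over the 3 times 0 of 26 differed between OGD+Oba and OGD in limma, where 1.03% of all tested genes passed; 1 had an unadjusted p under 0.05 (1.72% of all tested genes), Gm14296 with -1.28 ± 0.49 (adjusted p = 0.899). The median over the zinc finger genes was 0.01, against -0.01 over all tested genes. The highest values were Zfp967 with 0.65 ± 0.36, 2210418O10Rik with 0.58 ± 0.44 and Gm14434 with 0.25 ± 0.34. The lowest after Gm14296 were Zfp329 with -0.18 ± 0.30 and Zfp292 with -0.08 ± 0.37. Zfp329 stood at 0.57, 0.91 and 0.56 FPKM in OGD+Oba at 1, 3 and 6 h, at 1.56, 0.62 and 0.64 FPKM in OGD, and at 1.35, 1.43 and 2.01 FPKM in normoxia. A p that misses the threshold does not show that the arms are alike, and the SEs of these differences ran between 0.29 and 0.49.

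Between single libraries, 1 zinc finger gene differed at least 2-fold in OGD+Oba from OGD at 1 h (Gm14296, lower), where 2.93% of all tested genes were. At 3 h 2 were (Zfp967 higher and Gm14296 lower), against 1.21%, and at 6 h 0 were, against 0.862%. All are copies with shared sequence. Among the 20 tested genes with under 50% of words shared, the difference ran between -0.71 (Zfp329) and 0.51 (Zfp825) at 1 h. It ran between -0.06 (Zfp54) and 0.47 (Zfp292) at 3 h, and between -0.13 (Zfp326) and 0.33 (Zfp821) at 6 h. Of these 20, 1 was higher in OGD+Oba than in OGD at each of the 3 times, namely Zbtb3, and 0 were lower at each. The differences of Zbtb3 were 0.04, 0.26 and 0.08 at 1, 3 and 6 h. The share of all tested genes that kept 1 direction was not counted, and no test was made.

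**Figure D5:**
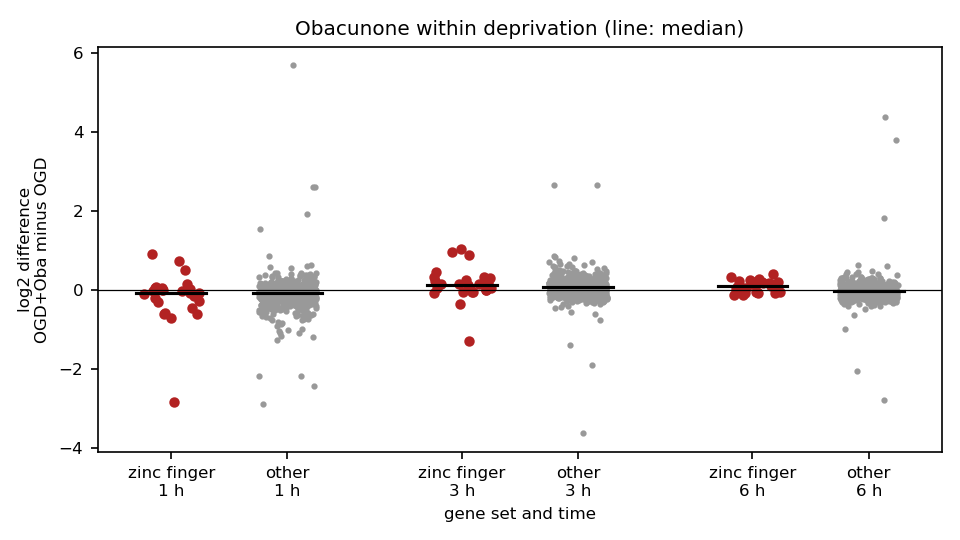
Difference between OGD+Oba and OGD in log2(FPKM + 1) at 1, 3 and 6 h for the 26 tested zinc finger genes and for the other tested genes; each point is a gene, the line is the median. The zinc finger points centre near 0 at each time, and those beyond 1 in size are Gm14296 at 1 h and 3 h and Zfp967 at 3 h.

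Promoter windows (RefSeq, GRCm38.p6, 250 bases before and 50 after the start) were found for 25 of the 28 genes, not for Gm14296, Zfp395 and Zkscan7. The letters ACGTG on either strand, CACGTG included, were in 3 of the 25 windows (Zfp292, Zfp558 and Zfp607b), 12%, against 19.7% of 27025 promoters, 1 per gene. CACGTG was in 1 window, that of Zfp292, 4% against 7.24%. Genes with a KRAB match had a median of 8 CpG dinucleotides per window and those without one 26, against 7 over all promoters. At least 15 were held by 3 of 17 windows with a KRAB match and 7 of 8 without one, against 35.2% of all promoters. In the 8 genes that fell at 3 h the median was 8 and ACGTG was in 0 windows. A match describes letters in these windows and not a bound site, and forms of the core other than ACGTG were not counted.

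Other genes of the repressor pathway could be followed only where the table lists them. Of 21 genes of the KRAB corepressor machinery, which include Trim28 and Setdb1, 0 are listed, so their levels were not analysed here. Of 17 corepressors that BTB proteins use, 2 are listed, both higher in OGD at 6 h, and 1 rose at 3 h, where 32.8% of all tested genes and 60.1% of those chosen as higher at 6 h did: Rcor2, a scaffold that holds a histone demethylase, stood at 0.82, 3.81 and 4.50 FPKM in OGD+Oba, at 0.99, 2.58 and 4.67 FPKM in OGD, and at 1.31, 0.42 and 0.41 FPKM in normoxia. It rose by 1.55 ± 0.25 (adjusted p = 0.00146). Bcl6, itself a BTB zinc finger repressor, had a difference of 0.32 ± 0.22 (adjusted p = 0.243). The medians and counts of these lists rest on what the 6 h selection let through.

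Of a list of 75 other factors, nearly all with Cys2-His2 fingers, 9 are listed and 8 were tested: 5 rose at 3 h (Egr1, Klf4, Klf10, Klf11 and Prdm1), 2 fell (Ikzf4 and Snai1) and Hivep2 did not pass. Of all tested genes 32.8% rose and 28.6% fell; of those chosen as higher at 6 h 60.1% rose, and of those chosen as lower 62.1% fell. At 1 h 2 of the 8 fell, Egr1 and Klf10, where 4.14% of all tested genes passed in either direction. Prdm1, a transcriptional repressor of lymphocyte and other cell fates, stood at 2.13, 18.04 and 22.1 FPKM in OGD+Oba, at 1.96, 14.3 and 24.0 FPKM in OGD, and at 2.44, 1.64 and 0.69 FPKM in normoxia. It rose by 2.69 ± 0.20 at 3 h (adjusted p = 3.31e-05). Egr1, an immediate early factor, stood at 11.4 FPKM in OGD at 1 h, against 179 FPKM in normoxia, and at 86.5 FPKM in OGD at 3 h, against 5.65 FPKM in normoxia.

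Across the 9 libraries, the genes outside the family most like the median zinc finger profile were Ntn4, Tasor2 and Urb2, with Pearson r of 0.985, 0.980 and 0.979 on centred log2 values. The points share libraries and unknown depths, the genes were picked for their likeness, and no test was made. Tasor2 stood at 6.19, 6.30 and 5.06 FPKM in OGD+Oba at 1, 3 and 6 h, at 9.10, 5.21 and 4.87 FPKM in OGD, and at 7.65, 9.64 and 12.5 FPKM in normoxia. Like the median zinc finger gene, it was highest in normoxia at 6 h and lowest in OGD at 6 h. These are the libraries on which the table was chosen, so genes chosen as lower in OGD there share this part of the shape by that choice.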

How the data were processed

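The labels give 9 groups of 1 library, from the arms OGD+Oba, OGD and normoxia at 1, 3 and 6 h. Per the submitters' processing notes, reads were handled with HISAT2 2.0.4 and the GRCm38 assembly; the counting tool is not given in the sources used here. The authors deposited 1 table with FPKM values per gene and library, as its column names give the unit, and their own log2 ratio columns between libraries. No depth is known for these values, and counting intervals are not given. Their FPKM sums over the listed genes ran between 14198 and 22631 and are not depths. The authors' table holds genes with a log2 ratio of at least 1 in size at 6 h. Over 653 genes these 6 h ratios differed from log2 ratios of the deposited FPKM values by a median of 0.06 in size, with 0 changes of sign; among the zinc finger genes the gap was widest for Zfp54, at -1.18 in the authors' column and -1.76 from FPKM. How the authors' ratios were made is not given in the sources used here.

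Values were taken as log2(FPKM + 1), and 580 genes, those averaging 1 FPKM or more, were fitted with limma 3.58.1 (R 4.3.3, with trend, Benjamini-Hochberg adjustment). Residual and prior degrees of freedom were 2 and 5.48 for the fit per time, and 4 and 21.3 for the fit over the times. Both were tested on simulated data. A gene's transcripts (GENCODE M21) were split into 31-base words, and sharing is the percent of these that other genes' transcripts also hold. Positions come from RefSeq (GRCm38.p6), matched for 671 genes.

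Genes were named by a rule: the 8 highest and 8 lowest at 3 h, those called at 1 h, all Zbtb, Zkscan, Zscan and Zik members, the 4 copies, and the 3 highest and 3 lowest mean OGD+Oba minus OGD differences. Zfp326 and Zfp983 were named after their values were seen because they passed the test; Zfp932, Zfp950, Zfp961, Zfp759, Zfp28 and the listed corepressors and factors were also named after their values were seen. The members, lists and tests were chosen with earlier results of these data known. Alternatives were a pseudocount of 0.1, no floor, median-ratio scaling, limma without trend, no time term, a size of 1.5-fold, leaving out shared genes, and leaving out the 3 libraries of each time. Added after seeing the data were the contrast between the 3 h and 1 h effects and the summing of near-identical copies.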

Additional observations from a re-analysis of the deposited data

Results flagged for a closer look

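The deprived-minus-normoxia difference at 3 h was set against that at 1 h in the same limma fit, a contrast added after seeing the data. It passed an adjusted p of 0.05 for 5 zinc finger genes, where 37.1% of all tested genes passed. The 3 h minus 1 h value was -1.04 ± 0.24 for Zfp54 (log2 ± SE, adjusted p = 0.0134), -1.04 ± 0.31 for Zfp825 (adjusted p = 0.0344) and -1.77 ± 0.41 for Zfp967 (adjusted p = 0.0123). The difference was higher at 3 h by 1.24 ± 0.25 for Zfp395 (adjusted p = 0.00637) and by 2.84 ± 0.45 for 2210418O10Rik (adjusted p = 0.00212). For the last and for Zfp967 all 31-base words are shared with other genes, and summed with Gm14296 the value for 2210418O10Rik was -0.07 ± 0.27 (adjusted p = 0.823). For Zfp825 and Zfp54 the normoxia library at 3 h was 0.68 and 0.52 above that at 1 h.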

How the results depend on the processing

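The count of 0 zinc finger genes called at 1 h became 1 (Zfp967) with a pseudocount of 0.1. That is 3.85% of the 26, against 4.83% of all tested genes. Leaving out each other time also gave 1, namely Zfp967 without 3 h (7.24% of all tested genes passed) and Gm14296 without 6 h (6.03%). The 11 calls at 3 h (3 higher and 8 lower) ranged between 7 with the 6 h libraries left out (3 and 4; 52.9% of all tested genes passed) and 15 with those of 1 h left out (4 and 11; 66.9%). They ranged between 11 and 13 under the settings that keep all libraries, with 5 higher and 6 lower at a pseudocount of 0.1. Without shared genes 12 of 20 passed, 60% against 68% of all tested genes. With no floor 11 of 28 did (39.3% against 54.8%), and in limma without trend 13 of 26 (50% against 61.9%). A pseudocount of 0.1 and median-ratio scaling each gave 11 of 26, 42.3% against 60.7% and 61.7%. Zfp54, Zfp760, Zfp292, Zfp395 and 2210418O10Rik kept their calls wherever they were fitted singly. The 24 of 26 called at 6 h became 20 of 20 without shared genes, 26 of 28 with no floor, and 21 to 25 of 26 under the other planned settings, where 94.1% to 99.6% of all tested genes passed. Over the times, OGD against normoxia gave 0 calls, and 0 to 16 with a time left out (16 without 1 h, where 75.3% of all tested genes passed); with no time term, that is with no replicate block, it gave 0. OGD+Oba against OGD gave 0 calls under every setting run. Over the times Gm14296 changed direction: it stood at 0.25 with all libraries and did not pass (limma adjusted p = 0.636), and between -1.05 and 0.92 with a time left out. The lowest value, without 1 h, passed (limma adjusted p = 0.00319). Values of Gm14308, Zfp28 and Zfp653 over the times, none called, also changed sign without the 6 h libraries, to 0.24, -0.16 and -0.09, against -0.15, 0.09 and 0.20 with all libraries.

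Counts at least 2-fold apart depended on the size and the pseudocount; the percent in parentheses is the share of all tested genes. At 1.5-fold, 12 (53.8%) and 25 (99.7%) of 26 zinc finger genes differed between OGD and normoxia at 3 h and 6 h, 6 (8.62%) and 4 (3.79%) between OGD+Oba and OGD at 1 h and 3 h, and 6 (23.4%) and 8 (39.5%) between normoxia at 3 h or 6 h and at 1 h. With a pseudocount of 0.1 the counts were 9 (31.7%) and 20 (91.7%) for OGD against normoxia at 3 h and 6 h, and 4 (5.52%) and 4 (2.59%) for OGD+Oba against OGD at 1 h and 3 h. Median-ratio scaling gave 2 (2.59%) and 1 (1.03%) there, and 19 (68.3%) for OGD against normoxia at 6 h. Without shared genes, with 20 zinc finger genes left, OGD against normoxia gave 0 (2.61%) at 1 h and 1 (22.2%) at 3 h, OGD+Oba against OGD gave 0 (1.12%) at 1 h and 0 (0%) at 3 h, and normoxia against 1 h gave 0 (7.45%) at 3 h and 0 (13.8%) at 6 h. Median-ratio scaling moved the median of all genes by between -0.20 (OGD 6 h) and 0.18 (normoxia 6 h).

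Each group is 1 library of unknown depth, and how many fragments lie behind values near 1 FPKM is not known. The replicate numbers of groups with 1 library pair nothing: no paired analysis was possible because each group holds a single library, and the times served as blocks. Calls at 3 h borrow their spread from the libraries of the other times.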
